A study of Mus musculus with 6 samples.

Results

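The ADAMTS proteases are secreted zinc metalloproteinases that carry thrombospondin repeats and cut proteins of the extracellular matrix. The genes described here were 10 members of that family: Adamts1, Adamts2, Adamts4, Adamts5, Adamts7, Adamts8, Adamts9, Adamts10, Adamts12 and Adamts15. A gene was measured through probe sets whose only annotated symbol was that gene, and the probe set with the highest mean over all arrays stood for it. By this rule 9 of the 10 genes had a probe set, out of 19938 genes on the array with one. No probe set was annotated to Adamts2 alone, so Adamts2 was not analysed here. All 9 passed the filter on dim probe sets, at 3.90 on the log2 scale, and were among the 16487 genes tested.

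The expression profiles were from gastrocnemius muscle, which lies in the calf, taken from males at 12 weeks of age, with 3 wild type arrays and 3 arrays of mice labelled homogenous SPARC knockout. SPARC is a secreted glycoprotein that binds collagen and affects how cells meet their matrix. The strain given for both genotypes was B6;129S-Sparctm1Hwe/J, a mixed background, and the labels do not say whether the wild types were littermates or which part of Sparc the allele removes. The design text speaks of muscle from each mouse, so each array was read as 1 mouse. The labels name no batch and no day of hybridisation.

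ADAMTS enzymes are made as inactive precursors, are trimmed by furin-like convertases, and act outside the cell. One branch, the hyalectanases, cuts the large aggregating proteoglycans versican and aggrecan. Another removes the amino propeptide of procollagens, a further one cuts cartilage oligomeric matrix protein (COMP), and others bind the fibrillin microfibrils. In muscle, the clearing of versican around myoblasts accompanies their fusion into fibres.

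Sparc itself read 11.73 to 11.87 in the wild types and 5.83 to 6.74 in the knockouts on the log2 scale, a fall of 43.9-fold (limma adjusted p = 2.08e-05). Array medians of the deposited intensity were 40.5 to 44.7. Muscle fibre genes such as Acta1 and Ckm were bright on every array, at 12.66 to 13.48 on the log2 scale.

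None of the 9 measured ADAMTS genes passed the threshold of 0.05 for the adjusted p in limma, where 0.995% of all genes tested did so. Adamts8 and Adamts10 lay higher in every knockout array than in every wild type array, by 0.38 and 0.37 in the means on the log2 scale. Adamts1 had a lower knockout mean (a change of -0.41, or 1.33-fold), with overlapping arrays. The remaining 6 genes had changes between -0.14 and 0.17 on the log2 scale. At an unadjusted p of 0.05, 2 of the 9 were higher and 1 was lower, against 18.4% of all genes in either direction, 8.16% higher and 10.3% lower. The groups did not overlap in 2 of the 9, both higher in the knockouts, against 11.1% of all genes in that direction and 13.8% in the other. With 9 genes, each gene is a large step in such a share. The median change of the 9 was 0.06 on the log2 scale, and that of all genes tested was 5.34e-05.

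**Figure D1:**
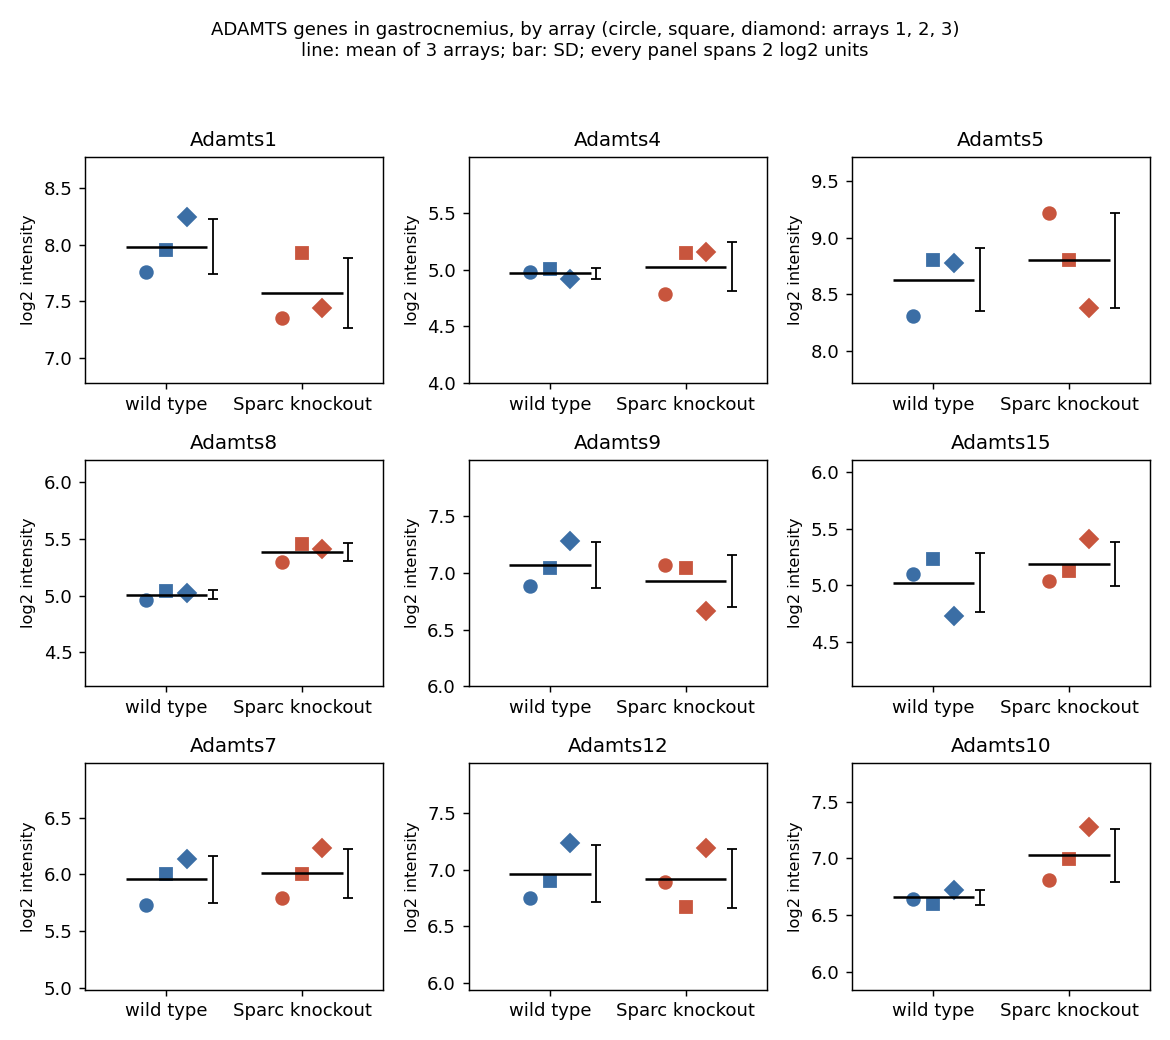
Log2 intensity of the 9 measured ADAMTS genes on each of the 3 wild type (blue) and 3 Sparc knockout (red) arrays, with the mean and SD of each group; each panel spans 2 log2 units. Adamts8 and Adamts10 are the genes whose groups do not overlap, and Adamts1 is lower in knockout arrays 1 and 3 while knockout array 2 lies among the wild types.

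Among the hyalectanases, Adamts1, an inducible protease that cuts versican and aggrecan, read 7.76, 7.95 and 8.25 in wild type arrays 1, 2 and 3 and 7.35, 7.92 and 7.44 in knockout arrays 1, 2 and 3 on the log2 scale. Knockout arrays 1 and 3 lay below every wild type array, whereas knockout array 2 lay above wild type array 1. The change was -0.41 ± 0.18 (SE, 3 arrays each; 95% interval -0.81 to -0.01; limma adjusted p = 0.258). Without knockout array 2 the change was -0.59 (adjusted p = 0.0635), a setting in which 6.17% of all genes passed.

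Adamts8, a protease of the same branch that was described for its effect on blood vessel growth, read 4.96, 5.04 and 5.02 in the wild types and 5.30, 5.45 and 5.41 in the knockouts. The arrays of each group lay close together and the groups were apart. Its change was 0.38 ± 0.095 (SE; 95% interval 0.16 to 0.60; limma adjusted p = 0.099), the smallest p of the 9 genes. Its probe set was dim, with a mean brighter than 46.8% of all probe sets on the array. The deposited values carry no detection call. Leaving out any 1 array kept its change between 0.35 and 0.42, with adjusted p-values of 0.066 to 0.327.

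Adamts5, a major aggrecanase that takes part in versican clearance during myoblast fusion, had the widest spread of the 9 genes among the knockouts. Its values were 8.31, 8.80 and 8.78 in the wild types and 9.22, 8.80 and 8.38 in the knockouts. Knockout array 1 was above the wild types and knockout arrays 2 and 3 were within their range, so the groups overlapped. The change of 0.17 ± 0.21 (SE; 95% interval -0.32 to 0.66; limma adjusted p = 0.741) became -0.04 without knockout array 1 and 0.38 without knockout array 3.

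Adamts15, which also cuts versican and has been tied to myoblast fusion, read 5.10, 5.24 and 4.73 in the wild types and 5.04, 5.13 and 5.41 in the knockouts. The change was 0.17 ± 0.16 (SE; limma adjusted p = 0.627) and was 0.02 without wild type array 3, the lowest of the 6. Adamts4, an aggrecanase, read 4.98, 5.01 and 4.92 in the wild types and 4.78, 5.15 and 5.16 in the knockouts. Knockout array 1 was below the wild types and knockout arrays 2 and 3 above them, which left a mean change of 0.06 ± 0.12 (SE; 95% interval -0.22 to 0.34) that was -0.0047 without knockout array 3. Both probe sets were dim, brighter than 45.4% and 43.4% of all probe sets.

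Adamts9, a broadly expressed versican-cutting protease, read 6.88, 7.04 and 7.28 in the wild types and 7.07, 7.05 and 6.67 in the knockouts. Knockout array 3 alone was below the wild types. The change was -0.14 ± 0.15 (SE; limma adjusted p = 0.671) and was -0.01 without knockout array 3. This was the only gene of the 9 with several probe sets. Of its 6 probe sets 5 had a negative change and 1 a positive one, from -0.26 to 0.14, and in 0 of the 6 were the groups apart. In all 6 probe sets wild type array 1 was the lowest of the wild types and wild type array 3 the highest, a spread among the wild types that the probe sets shared.

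**Figure D2:**
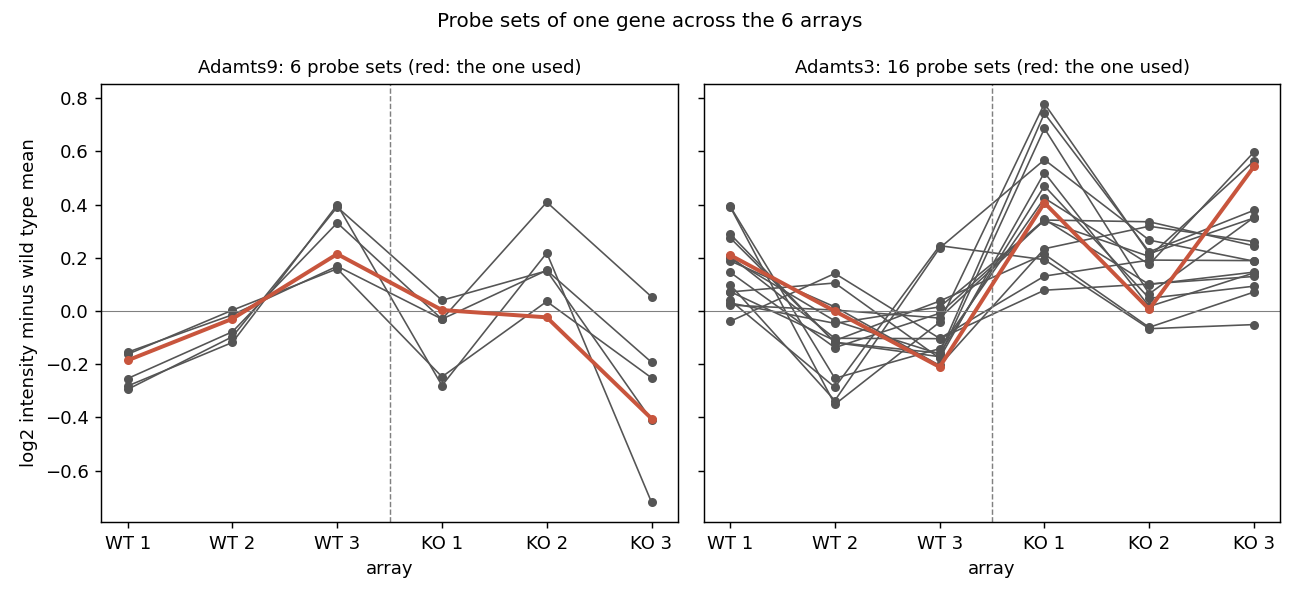
Log2 intensity minus the wild type mean on the 6 arrays for each of the 6 probe sets of Adamts9 (left) and the 16 probe sets of Adamts3 (right), with the probe set used for the gene in red. The Adamts9 probe sets run together among the wild types and lie on both sides of 0 in the knockouts, and the means of the Adamts3 probe sets are all above 0 in the knockouts.

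Of the pair that cuts COMP, Adamts7 read 5.73, 6.01 and 6.13 in the wild types and 5.79, 6.01 and 6.23 in the knockouts, a change of 0.05 ± 0.15 (SE; 95% interval -0.28 to 0.39). Adamts12 read 6.74, 6.90 and 7.24 in the wild types and 6.89, 6.67 and 7.19 in the knockouts, a change of -0.04 ± 0.17 (SE; 95% interval -0.42 to 0.33). In both genes the groups overlapped over most of their range, and leaving out 1 array turned the sign, of Adamts7 without wild type array 1 (-0.06) or knockout array 3 (-0.06) and of Adamts12 without wild type array 3 (0.09) or knockout array 2 (0.08). Comp, their substrate, read 7.04 to 7.77 in the wild types and 8.03 to 9.34 in the knockouts, with a change of 1.02 ± 0.34 (SE; limma adjusted p = 0.164).

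Adamts10, which binds fibrillin microfibrils and is altered in a human connective tissue syndrome with short stature, read 6.64, 6.60 and 6.72 in the wild types. The knockouts read 6.81, 6.99 and 7.28, all above the wild types, with knockout array 3 the highest. Its change was 0.37 ± 0.13 (SE; 95% interval 0.08 to 0.66; limma adjusted p = 0.177). The change was 0.24 without knockout array 3 and 0.48 without knockout array 1. Its close relative Adamts6 read 4.72 to 5.33 in the wild types and 5.09 to 5.97 in the knockouts, with overlap, and had a change of 0.55 ± 0.23 (SE; adjusted p = 0.252), which was 0.34 without knockout array 1. Fbn2, a fibrillin gene, had a change of 0.40 ± 0.23 (SE), carried by knockout array 3 at 5.88 against 4.82 to 5.00 on the other arrays. Fbn1 had no probe set of its own symbol and was not analysed here.

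**Figure D3:**
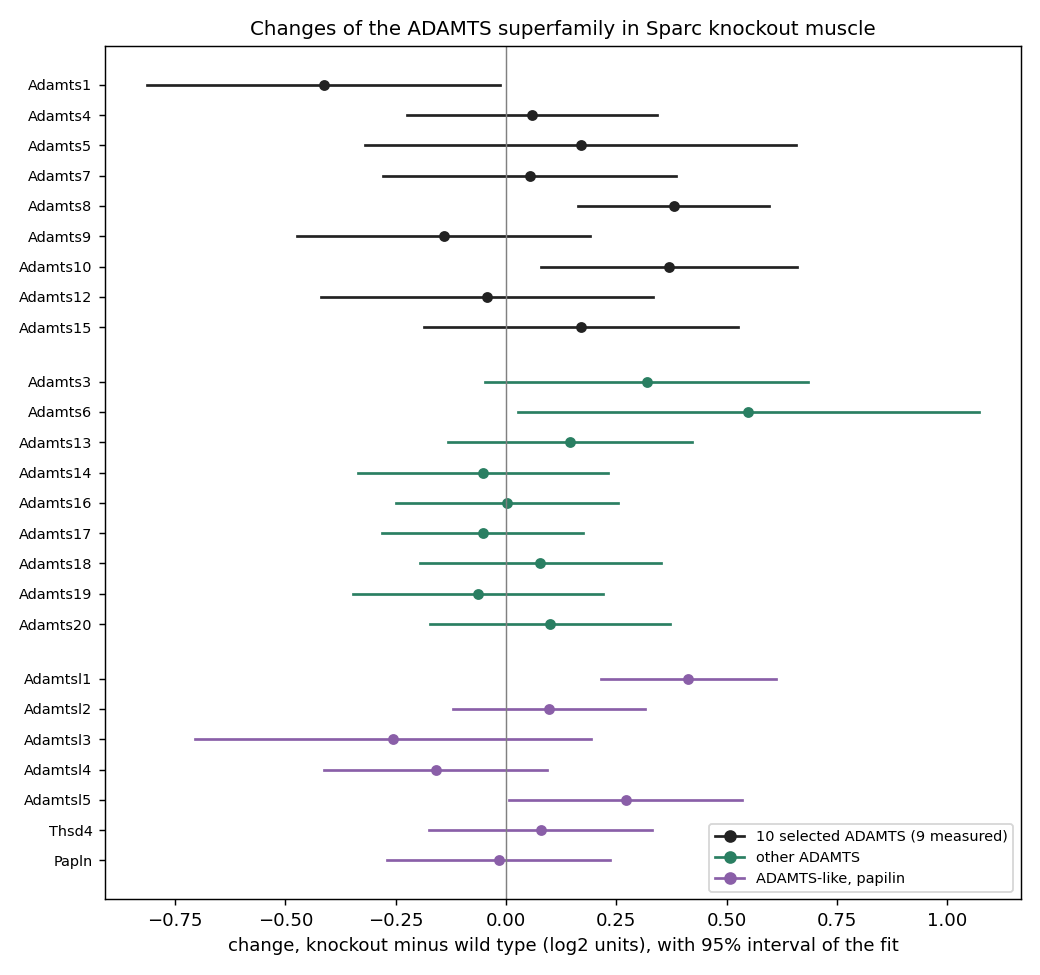
Change between knockout and wild type (log2 units, points) with the 95% interval of the fit (lines) for the 9 measured genes of the selected ADAMTS set, the other 9 ADAMTS proteases, and the 7 ADAMTS-like and related genes. The intervals of Adamts1, Adamts8, Adamts10, Adamts6, Adamtsl1 and Adamtsl5 lie to 1 side of 0, and none of the 25 genes passed after adjustment over all genes.

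Some of these genes neighbour each other: among protein-coding genes of GRCm38.p6, Adamts1 lies next to Adamts5, and Adamts15 next to Adamts8. The log2 difference of Adamts1 minus Adamts5 within an array was -0.55, -0.85 and -0.53 in the wild types and -1.87, -0.88 and -0.94 in the knockouts. The groups were apart, narrowly for knockout array 2, with means of -0.65 ± 0.18 and -1.23 ± 0.55 (SD, n = 3 each; two-sided exact permutation p = 0.1, the smallest that 3 against 3 arrays allow, and 0.2 adjusted over the 2 pairs). The corresponding difference of Adamts15 minus Adamts8 overlapped between the groups (means 0.02 ± 0.27 and -0.20 ± 0.17, SD, n = 3 each; exact permutation p = 0.3, adjusted 0.3).

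Adamts8 and Adamts10 were each set against all other tested genes by the shape of their values over the 6 arrays. For Adamts8 the closest were Lipg, an endothelial lipase, then Agap1 and Sh3tc2, with root mean square differences of 0.048, 0.051 and 0.052 log2 units after centring each gene on its wild type mean. For Adamts10 they were Alox12, a lipoxygenase, Ptprs, a receptor tyrosine phosphatase, and Abca3, a lipid transporter, at 0.047, 0.047 and 0.052. These 6 genes had changes of 0.31 to 0.39, with limma adjusted p-values of 0.103 to 0.239. They were picked for likeness over the same 6 arrays, so changes near those of Adamts8 and Adamts10 follow from the choice. Lipg was dim, with a wild type mean of 3.94 against the filter at 3.90.

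The spread of the ADAMTS genes among wild types was wide. Their median SD over the 3 wild type arrays was 0.21, against 0.091 for all genes tested, and over the 3 knockout arrays 0.23 against 0.16. Wild type array 1 lay below the wild type mean in 7 of the 9 genes and wild type array 3 above it in 7. The mean level of the 9 genes relative to the wild type mean was -0.13, 0.04 and 0.09 in wild type arrays 1, 2 and 3. In knockout arrays 1, 2 and 3 it was -0.00022, 0.10 and 0.10. The mean level of the adipocyte markers was -0.61, 0.26 and 0.36 in the wild type arrays and -0.66 to -0.50 in the knockouts. By that level wild type array 1 lay within the knockout range. Of these markers, 9 of 9 had negative changes, where 8243 of all 16487 genes tested did. The groups were apart in 2 of the 9, both lower in the knockouts, against 13.8% of all genes. The part of fat cells in the ADAMTS values was not tested. In knockout arrays 1, 2 and 3, the number of ADAMTS genes above the whole wild type range was 3, 3 and 5, and the number below it was 2, 1 and 2. Over all genes tested, 31.0%, 36.4% and 36.1% lay above that range and 43.1%, 28.3% and 36.9% below it in the same arrays. The per-array median of the 9 genes, relative to their wild type means, was -0.19 to 0.15 in the wild types and 0.0039 to 0.23 in the knockouts, so that the groups overlapped.

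**Figure D4:**
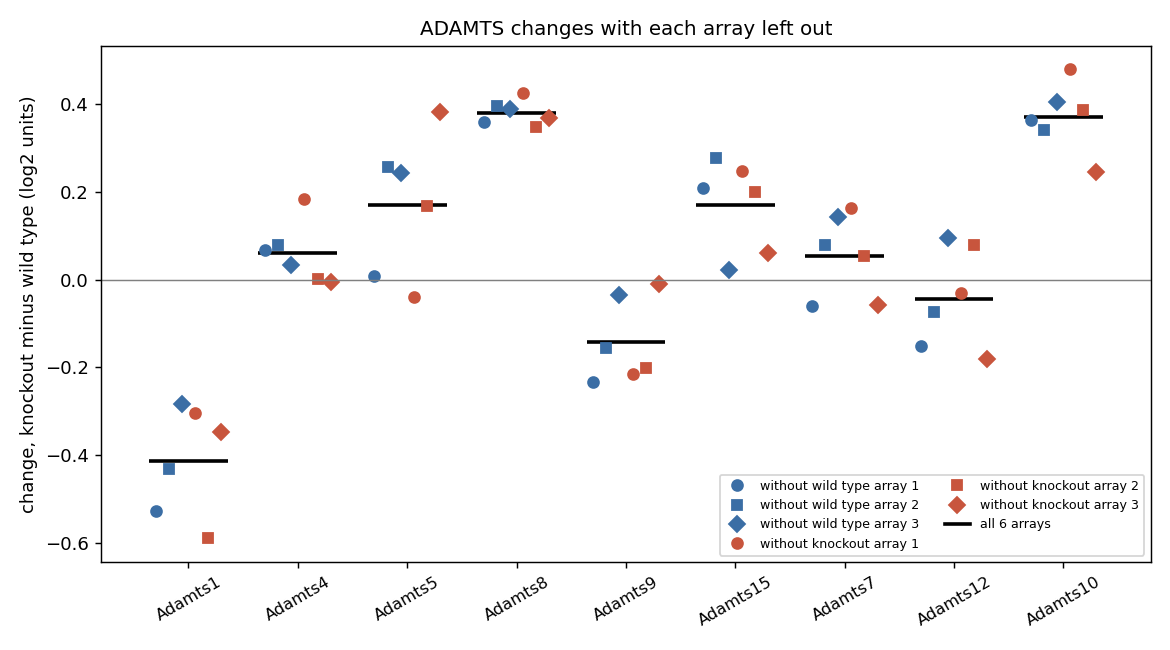
Change between knockout and wild type (log2 units) of the 9 measured ADAMTS genes with all 6 arrays (black line) and with each array left out in turn (blue: a wild type array; red: a knockout array). Adamts8 stays between 0.35 and 0.42 and Adamts1 between -0.59 and -0.28, while the points of Adamts4, Adamts5, Adamts7 and Adamts12 fall on both sides of 0.

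Of the other 9 ADAMTS proteases, 0 passed in limma in either direction. Only 1, Adamts6, was higher at an unadjusted p of 0.05, against 8.16% of all genes. Their median change was 0.08, with a range of -0.06 to 0.55. Adamts3, which processes procollagen and the lymphatic growth factor VEGF-C, is with Adamts14 the closest measured relative of Adamts2. Its chosen probe set had a change of 0.32 ± 0.16 (SE; adjusted p = 0.338). All 16 probe sets of Adamts3 had positive changes, from 0.03 to 0.45, and the groups were apart in 3 of them. These probe sets share the same RNA and are not replicates. Adamts14 had a change of -0.05 and Adamts13, which cuts von Willebrand factor, one of 0.14. Among the 7 ADAMTS-like and related genes, which hold the thrombospondin repeats without the protease, 0 passed in limma. At an unadjusted p of 0.05, 2 were higher, against 8.16% of all genes. Adamtsl1 read 6.62 to 6.69 in the wild types and 7.01 to 7.10 in the knockouts (change 0.41 ± 0.087 SE, adjusted p = 0.0697). Its other probe set had a change of 0.23 with overlapping arrays. Adamtsl1 passed in 1 of the 15 alternative settings, array weights (adjusted p = 0.0433), in which 2.00% of all genes passed. It did not pass in the other 14, among them averaged probe sets (0.136) and each wild type array left out (0.220 to 0.287). Adamtsl5 had a change of 0.27 ± 0.12 (SE; adjusted p = 0.259).

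Most of the substrates had positive changes, some of them larger than those of the proteases, although none passed over all genes in limma. Versican (Vcan), the main hyalectanase substrate of soft tissue, read 7.75, 8.05 and 7.95 in the wild types and 9.06, 8.31 and 9.07 in the knockouts. Every knockout array was above the wild types, with a change of 0.89 ± 0.20 (SE; adjusted p = 0.0767), or 1.86-fold. Biglycan (Bgn), a small proteoglycan, had a change of 1.01 ± 0.22 (SE; adjusted p = 0.0752). Over the 6 proteoglycans the median change was 0.18, with 3 higher and 0 lower at an unadjusted p of 0.05. Over the 12 genes listed as procollagens and other protein substrates the median was 0.72, with 7 higher and 0 lower. By that measure 8.16% of all genes were higher and 10.3% lower. The 7 included Thbs2, thrombospondin 2 (1.05 ± 0.22 SE, adjusted p = 0.0646), and Fn1, fibronectin (1.28 ± 0.29 SE, adjusted p = 0.0829). Among the 7 was also Pcolce, with a change of 0.33, which binds procollagen and is not an established substrate of these proteases. Without knockout array 2, Vcan, Bgn, Thbs2 and Fn1 all passed, with changes of 1.15, 1.29, 1.32 and 1.64, and in that setting 0 of the 9 ADAMTS genes did. There 6.17% of all genes passed, so that 0 of 9 is near the background, and the substrates named are those with the smallest p of their lists. The difference between a substrate's change and a protease's change was not tested.

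**Figure D5:**
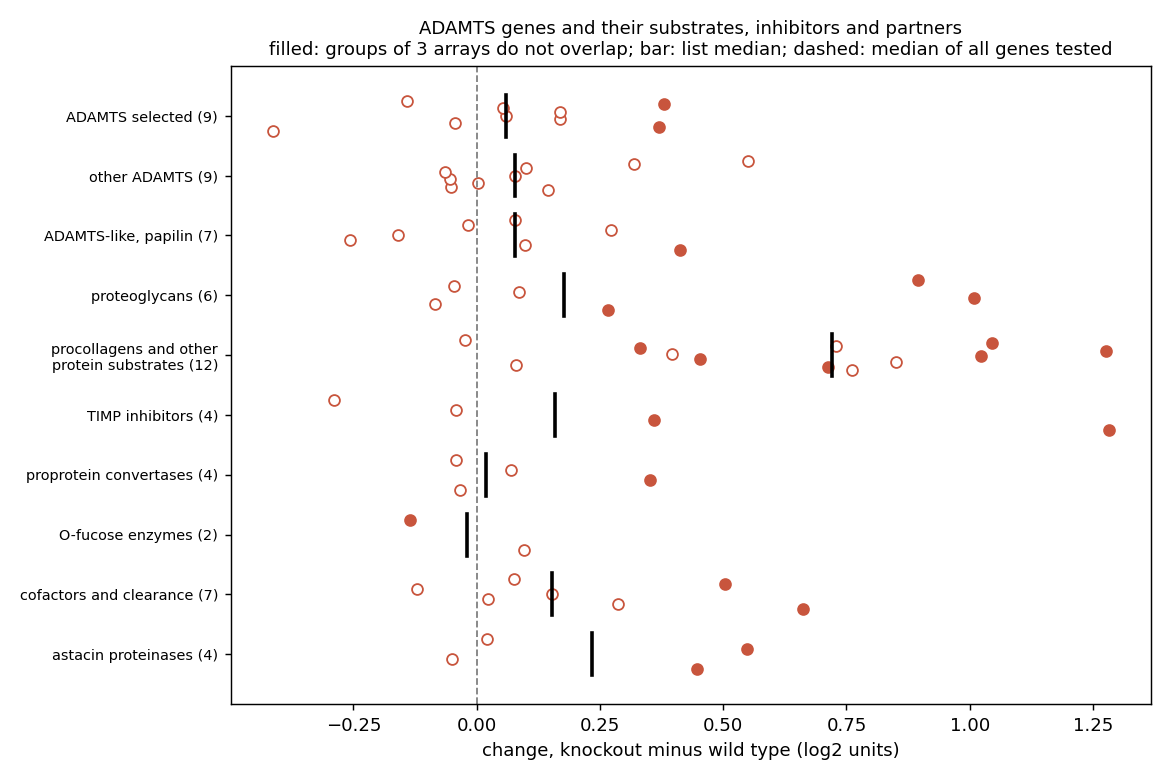
Change between knockout and wild type (log2 units) of each tested gene of the ADAMTS set and of 9 related lists, with the number tested in brackets; filled points are genes whose 3 knockout and 3 wild type arrays do not overlap, bars are list medians and the dashed line is the median of all genes. The median of the list of procollagens and other protein substrates, which also holds Pcolce, is 0.72 and that of the selected ADAMTS genes 0.06.

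Inhibitors and partners of the proteases were uneven. Of the 4 tissue inhibitors of metalloproteinases, 0 passed in limma and 2 were higher at an unadjusted p of 0.05, against 8.16% of all genes. With 4 genes, each gene is a large step in such a share. Timp1 read 4.78 to 5.28 in the wild types and 5.34 to 7.02 in the knockouts (change 1.28 ± 0.38 SE, adjusted p = 0.133), and Timp2 had a change of 0.36 ± 0.11 (SE; adjusted p = 0.133). Timp3, the inhibitor known to act on Adamts4 and Adamts5, read 10.04 to 10.29 in the wild types and 9.80 to 10.34 in the knockouts, a change of -0.04 ± 0.15 (SE). Lrp1, the receptor that takes up these aggrecanases from the cell surface, read 8.60 to 8.73 in the wild types and 9.04 to 9.27 in the knockouts (change 0.50 ± 0.096 SE, adjusted p = 0.0545). It passed in 4 of the 15 alternatives, which were array weights (adjusted p = 0.0409), knockout array 2 left out (0.0174), quantile normalization applied again (0.0459) and a filter at the 50th percentile (0.049952). It did not pass in the other 11, among them median centring (0.120), the replicate block (0.0877) and each wild type array left out (0.217 to 0.251). Cd44, a hyaluronan receptor, had a change of 0.66 ± 0.19 (SE; adjusted p = 0.125). Lrp1 and Cd44 had the smallest p of the 7 tested genes for cofactors and clearance. Over these 7 the median change was 0.15, with a range of -0.12 to 0.66, and 0 passed in limma. At an unadjusted p of 0.05, 2 were higher and 0 lower, against 8.16% and 10.3% of all genes.

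Of the 4 convertases that remove propeptides, 0 passed in limma. Only Pcsk5 was higher at an unadjusted p of 0.05 (0.35 ± 0.11 SE, adjusted p = 0.136), against 8.16% of all genes. Pcsk6 was at 0.07 and Furin at -0.03. The enzymes that put fucose and then glucose on thrombospondin repeats, Pofut2 and B3glct, were at -0.14 and 0.10. Of these 2, 0 passed and 0 reached an unadjusted p of 0.05, against 18.4% of all genes. Pofut2 read 7.47 to 7.68 in the wild types and 7.38 to 7.45 in the knockouts. Its groups did not overlap, as in 13.8% of all genes in that direction. Among 4 tested astacin proteinases, which process procollagen at its ends beside the ADAMTS enzymes, 0 passed in limma. At an unadjusted p of 0.05, 2 were higher, against 8.16% of all genes. These were Tll1 (0.55 ± 0.14 SE, adjusted p = 0.0964) and Bmp1, the procollagen C-proteinase (0.45 ± 0.13 SE, adjusted p = 0.123).

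Marker genes of cells that make or adjoin the matrix were summed on each array, and the part of these cells in the ADAMTS values was not tested. In whole muscle, fewer cells of a type and less RNA per cell cannot be told apart. Sums of intensity weigh the bright genes most, so the mean log2 level relative to the wild type mean is given beside them. Pericyte and smooth muscle markers (11 of 11) summed to 4913 to 5563 intensity units in the wild types and 5814 to 6219 in the knockouts, with mean log2 levels of -0.07 to 0.09 and 0.27 to 0.29. Macrophage markers (14 of 14) summed to 2725 to 3032 and 3697 to 6874, with mean levels of -0.04 to 0.04 and 0.29 to 1.10. In both lists the groups were apart by either measure. By single gene they were apart, with the knockouts higher, in 5 of the 11 and 9 of the 14, against 11.1% of all genes. Fibroblast and fibro-adipogenic progenitor markers (11 of 12 measured) summed to 5494 to 6256 and 6362 to 9726, while their mean levels overlapped, at -0.10 to 0.09 and 0.045 to 0.63. Among them Smoc2 had a change of -0.63 and lay lower in every knockout array, and Gpc3 had one of -0.30. Tendon markers (10 of 10) summed to 3680 to 5211 and 5599 to 9817, and their mean levels overlapped too, at -0.30 to 0.15 and 0.10 to 0.83. Muscle fibre genes (12 of 12) summed to 86559 to 86811 and 74820 to 84117, with overlapping mean levels of -0.0097 to 0.017 and -0.20 to -0.0051. Of the 12, 10 had negative changes, and Myh1 and Myh2 had positive ones of 0.43 and 0.24. In 8 of the 12 every knockout array lay below every wild type array, against 13.8% of all genes. Endothelial markers (10 of 10) overlapped by both measures, with sums of 3702 to 4044 and 2965 to 4706 and the lowest in knockout array 3. Satellite cell markers (6 of 6; sums of 519 to 547 and 511 to 648) and Schwann cell markers (4 of 6; 1389 to 1784 and 1372 to 2339) overlapped as well. Adipocyte markers (9 of 10), whose mean levels are given above, had overlapping sums of 10163 to 13310 and 8237 to 11529. No marker was listed at 0 on any array, and the lowest deposited value was 1.59.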

How the data were processed

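The authors' deposited values were probe-set intensity on a linear scale. Per the submitters' processing notes, the tools were RMA and Affymetrix Expression Console 1.3.0.187. RMA removes background, normalizes between arrays and shrinks differences of dim probe sets. The build is not given in the sources used. All 6 columns were used. Depth has no meaning here, and the number of arrays limits precision.

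Log2 was taken without an offset (the design had assumed log2 values). Of 35556 probe sets, 21789 had 1 symbol in the platform annotation, 1621 had several and 12146 were unnamed. The 9 measured members matched RefSeq (GRCm38.p6) by Entrez ID. Genes under the 25th percentile of probe-set means were left out. The knockout-minus-wild-type change was fitted by limma 3.58.1 (R 4.3.3; lmFit, trended eBayes, two-sided, Benjamini-Hochberg over 16487 genes); the method was tested on simulated data. SE is the fit's moderated standard error.

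Named genes were the members, Sparc and, in each list, the 2 with the smallest p when none passed. The 3 genes nearest in pattern to each of 2 members were named too. Adamts13, Adamts14, Comp, Pcolce, Fbn2, Timp3, Furin, Acta1, Ckm, Smoc2, Gpc3, Myh1, Myh2 and Adam12 were named outside this rule after their values were seen. Members and lists were chosen with earlier results of these data known. P-values set each change against the spread between these arrays, which limma moderates across genes. Alternatives were 15: normalization, dim filter, averaged probe sets, variance model, array weights, replicate block and each array left out.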

Additional observations from a re-analysis of the deposited data

How the results depend on the processing

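The count of ADAMTS genes past the threshold was 0 in all 15 alternatives, with the smallest adjusted p of any member between 0.0635 and 0.327. The signs of Adamts1, Adamts8, Adamts9, Adamts10 and Adamts15 held in every alternative in which they were tested; the filter at the 50th percentile left out Adamts4, Adamts8 and Adamts15. The count over all genes, 164, was 103 after median centring, 329 with array weights and 27 to 1017 with 1 array left out. Leaving out 1 array turned the sign of Adamts4 (-0.0047 to 0.18), Adamts5 (-0.041 to 0.38), Adamts7 (-0.061 to 0.16), Adamts12 (-0.18 to 0.094), Pcsk6 (-0.035 to 0.24) and B3glct (-0.0033 to 0.15). The median change of the 9 genes ran from -0.0047 to 0.16 over the same settings. These causes were not tested. With the replicate number as a block, 123 genes passed and 0 ADAMTS genes did (Adamts8 adjusted p = 0.143), and Thbs2 gained a call (0.0301). Without knockout array 2, 6.17% of all genes passed, 423 higher and 594 lower, and 8 named genes, each among the 2 with the smallest p of its list, gained a call. Arrays of the same number shared little (r = 0.0088, 0.082 and -0.020 across genes for numbers 1, 2 and 3, which are not independent replicates), and not every array correlated best with its own number. With 3 arrays a group and 95% intervals of 0.43 to 0.98 log2 units in width, small changes of these genes could not be told from none.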

Other observations

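The 9 listed genes of the membrane-anchored ADAM family, which lack the thrombospondin repeats, all had positive changes, from 0.02 to 0.75. Of all 16487 genes tested, 8244 had positive changes. The list was a choice of ADAM genes and does not stand for the whole family. The median change of the 9 was 0.24 on the log2 scale against 5.34e-05 for all genes tested. None of the 9 passed in limma. At an unadjusted p of 0.05, 0 were lower, against 10.3% of all genes, and 2 were higher, against 8.16%. These were Adam17, which sheds tumour necrosis factor from the cell surface (0.28 ± 0.11 SE, adjusted p = 0.216), and Adam23 (0.38 ± 0.16 SE, adjusted p = 0.261; 0.23 without knockout array 1). Adam12, named after its values were seen, read 4.95 to 5.20 in the wild types, 5.17 and 5.18 in knockout arrays 1 and 2, and 7.08 in knockout array 3.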
